A study of Mus musculus with 12 samples.

Results

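The integrated stress response is represented here by 10 genes chosen by symbol: the transcription factor genes Atf4, Atf5, Atf3 and Ddit3, and the target and effector genes Trib3, Asns, Chac1, Sesn2, Ddit4 and Gdf15. All 10 are among the 24421 entries of the count table.

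The response is the signalling route by which a cell that runs short of amino acids, accumulates unfolded protein in the endoplasmic reticulum, or has failing mitochondria slows translation and switches on a repair programme. A family of kinases phosphorylates the initiation factor eIF2, general translation drops, and the mRNA of the transcription factor Atf4, which is read poorly in resting cells, is translated instead. The Atf4 protein then raises genes for amino acid supply and for the feedback that ends the response. In skeletal muscle the route is best known for the secreted hormone genes Gdf15 and Fgf21, which appear in mitochondrial myopathy. Because much of the control over Atf4 is exerted on translation and protein stability, the mRNA level of Atf4 is not a measure of its activity.

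RNA was sequenced from the tibialis anterior, a fast hindlimb muscle, of male mice at 4 months of age, as 12 libraries. Controls were 6 C57Bl/6 libraries (WT), and the other 6 were mdx/mTR. The mdx mutation is carried in the germline and destroys dystrophin, the product of Dmd, and mTR is the telomerase RNA gene. No group carries mdx or mTR alone, so the parts of these alleles cannot be told apart. The labels give neither the breeding generation nor whether each library came from a separate animal; where it did not, the p-values measure only the spread between libraries.

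Library totals ran from 36903560 to 40981012 counts in WT and from 35136327 to 60330410 counts in mdx/mTR. Dmd averaged 237 ± 6.90 in WT against 46.8 ± 7.20 in mdx/mTR (SD, n = 6; CPM, the count scaled to library size), the direction the mdx label calls for. Defining genes of the muscle fibre were abundant: the 8 myofibre markers summed to between 182976 and 214966 CPM in WT and between 145368 and 201461 CPM in mdx/mTR. Macrophage markers summed to 83.4 to 144 CPM in WT and 233 to 629 CPM in mdx/mTR, and 7 of 8 were higher. Myoblast and satellite cell markers summed to 34.0 to 42.1 CPM in WT and 56.8 to 115 CPM in mdx/mTR (5 of 6 higher), and those of fibro-adipogenic progenitors to 739 to 1214 CPM and 1816 to 3287 CPM (5 of 6 higher). Endothelial markers (500 to 636 CPM in WT, 378 to 477 CPM in mdx/mTR, 4 of 6 lower) and Schwann cell markers (41.8 to 53.3 CPM in WT, 22.3 to 34.6 CPM in mdx/mTR, 4 of 5 lower) went the other way. In whole muscle, a change in the number of cells of a type cannot be told apart from a change in the RNA of each cell, and the part of these cell types in the results on the 10 genes was not tested.

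The comparison of mdx/mTR with WT split the 10 genes. The transcription factor genes Atf4, Atf5 and Ddit3 and the pseudokinase gene Trib3 were lower in mdx/mTR, at between 64.3% and 74.2% of WT. The asparagine synthetase gene Asns and the transcription factor gene Atf3 were higher, by 2.40-fold and 2.03-fold. Chac1, Ddit4 and Sesn2 did not pass the test, and Gdf15 had too few counts to be tested. Of the 9 genes tested, 2 were higher and 4 lower at an adjusted p below 0.05 (edgeR quasi-likelihood test, Benjamini-Hochberg over all 13937 genes tested). Over all genes tested, 48.3% passed, 25.0% higher and 23.4% lower. On the log2 scale the median change was -0.08 for the 9 genes and 0.01 for all genes tested. The median of the 9 genes turned to 0.06 without WT replicate 5 and to 0.09 with library totals alone as the scaling, and with no filter on low counts, which adds Gdf15 and loses Trib3, it was 0.26 with 3 genes higher and 3 lower.

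**Figure D1:**
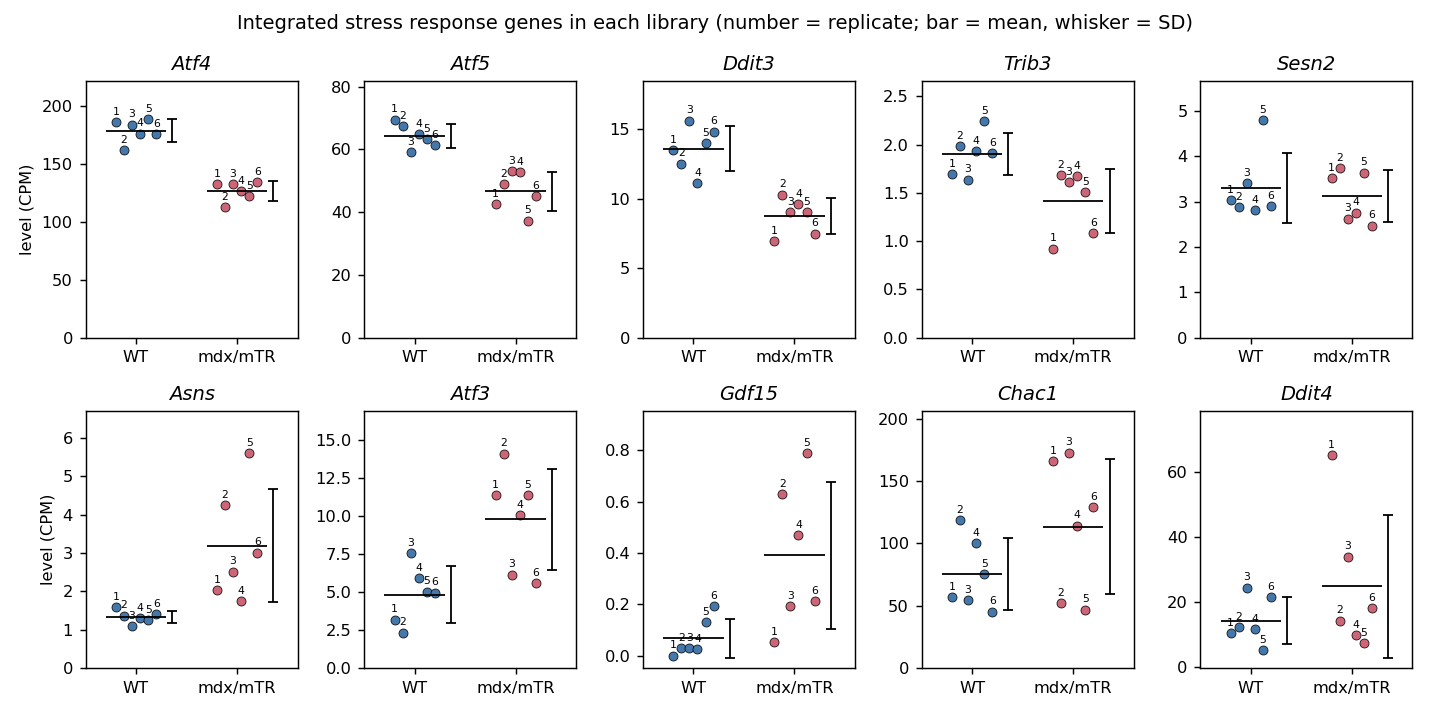
Level of each of the 10 genes in each library, in CPM on linear axes, for 6 WT (blue) and 6 mdx/mTR (red) libraries; numbers are replicate numbers, horizontal bars group means and whiskers the SD. The groups do not overlap for Atf4, Atf5, Ddit3 and Asns, while Chac1 and Ddit4 spread widely within mdx/mTR.

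Atf4 lies on chromosome 15 (chr15:80255184-80257541, plus strand, GRCm38) and encodes the central activator of the response. Its level ran from 162 CPM through a median of 180 to 189 CPM in WT and from 112 CPM through a median of 129 to 134 CPM in mdx/mTR. All 6 mdx/mTR libraries lay below all 6 WT libraries, and the spread within a group was small, with a coefficient of variation of 5.51% in WT and 6.57% in mdx/mTR. The log2 fold change was -0.50 ± 0.05 (SE; edgeR adjusted p 1.12e-05), or 70.9% of WT. The groups failed to overlap in the lower direction for 12.6% of all genes tested, and in the higher direction for 12.6%. Among the 10 genes, 3 were lower without overlap (Atf4, Atf5 and Ddit3) and 1 was higher without overlap (Asns).

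Atf5 is the nearest relative of Atf4 among the 10 genes, a second activator that is also controlled at translation and has been tied to the mitochondrial stress response. It was at 59.2 to 69.5 CPM in WT, with a median of 64.0, and at 37.3 to 53 CPM in mdx/mTR, with a median of 47.1. The ranges were separated, and the spread was wider in mdx/mTR, with mdx/mTR replicate 5 lowest. The log2 fold change was -0.46 ± 0.08 (SE; edgeR adjusted p 3.8e-04). The Atf5 gene (chr7:44812256-44816658, minus strand) shares 82 exonic bases with Nup62 and Il4i1 on the opposite strand, so a small share of its reads is uncertain if strand was not used in counting.

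Ddit3 encodes CHOP, the factor that follows Atf4 when stress persists and that is linked to cell death. Its level was 11.1 to 15.6 CPM in WT (median 13.7) and 6.94 to 10.3 CPM in mdx/mTR (median 9.04), with no overlap. The log2 fold change of -0.64 ± 0.11 (SE; edgeR adjusted p 2.93e-04) was the lowest of the 9 tested genes. Ddit3 (chr10:127290774-127296288, plus strand) shares 81 exonic bases with genes of the opposite strand, 68 of them with Mars.

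Atf3, which encodes a factor induced both by Atf4 and by injury and growth signals, went in the other direction. Its level was 2.32 to 7.55 CPM in WT (median 4.98) and 5.57 to 14.1 CPM in mdx/mTR (median 10.7). A total of 4 of the 6 mdx/mTR libraries lay above the highest WT library, while mdx/mTR replicates 3 and 6 lay inside the WT range. Between the groups, the log2 fold change was 1.02 ± 0.28 (SE; edgeR adjusted p 0.00782). Immediate early genes, which respond within minutes to injury or handling and move with Atf3 in many tissues, were measured beside it: of 10 tested, only Junb was higher (1.09 ± 0.27, edgeR adjusted p 0.00464) and only Jun lower (-0.56 ± 0.17, adjusted p 0.0162). With library totals alone, Jun did not pass (-0.41, adjusted p 0.0632). The summed level of that list was 360 to 754 CPM in WT and 341 to 616 CPM in mdx/mTR, and its part in the Atf3 result was not tested.

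**Figure D2:**
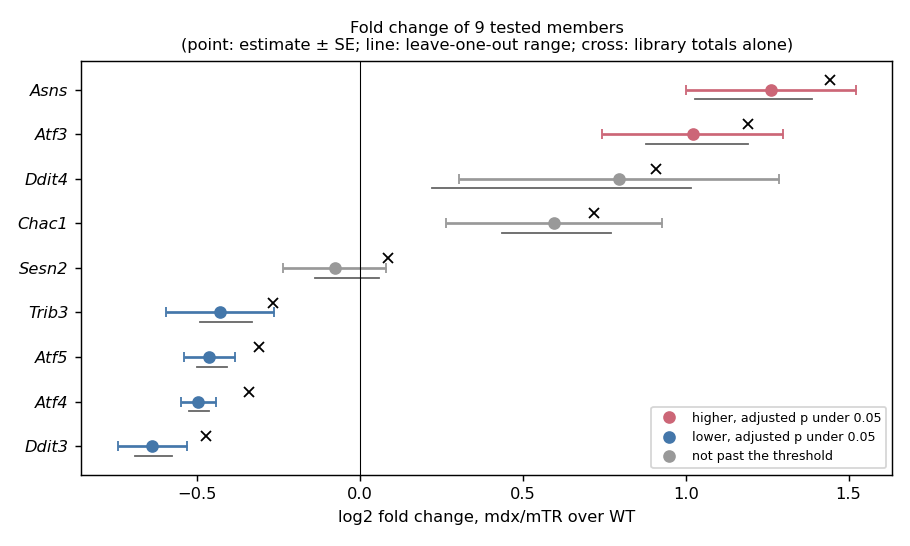
Difference between mdx/mTR and WT (log2) for the 9 tested genes (points, with SE), the range when each library is left out in turn (thin line) and the value with library totals in place of the trimmed mean scaling (cross). Asns and Atf3 sit to the right of 0, Atf4, Atf5, Ddit3 and Trib3 to the left, and Sesn2 changes side with library totals.

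The targets of Atf4 are recognised by a composite site at which an Atf4 dimer with a C/EBP protein binds, written TGATGNAAN and searched on both strands. It was looked for in the RefSeq promoter windows of GRCm38.p6, which reach from 250 bases before to 50 bases after each start. All 10 genes had a window, and 4 of them, Asns, Atf3, Chac1 and Trib3, held a match. The site was present in 3.95% of 32851 windows. The matches are shown because these 4 genes behaved differently from each other in the muscle; each line runs 5′ to 3′ along the strand of the gene, with the site in capitals.
Asns: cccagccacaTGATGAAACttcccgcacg
Atf3: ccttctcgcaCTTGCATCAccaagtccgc
Chac1: cttccctgccGTTGCATCActcctgccag
Trib3: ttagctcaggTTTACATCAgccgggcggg
The Asns stretch is chr6:7693214-7693242 on the minus strand, with its site 23 bases before the RefSeq start and inside a UTR exon of some GENCODE transcripts. The Atf3 stretch (chr1:191183426-191183454, minus strand) begins its site 111 bases before the start, within an intron of longer GENCODE transcripts. The Chac1 stretch (chr2:119351038-119351066, plus strand) has its site 194 bases before the start, upstream of the annotated gene. In Trib3 (chr2:152344029-152344057, minus strand) the site begins at base 14 after the RefSeq start, which is upstream of the GENCODE gene. In Asns the site is on the strand of the gene, and in the other 3 genes on the opposite strand. Of the 4 genes with a site, Asns and Atf3 were higher, Trib3 was lower and Chac1 did not pass. Among 289 tested genes with the site, 25.3% were higher and 26.3% lower, against 24.9% and 23.4% of the 10550 tested genes that have a window. A match in this window is a description of the letters, not a sign of binding. The cAMP response element TGACGTCA and the endoplasmic reticulum stress element (CCAAT, then CCACG after 9 bases) had no match in these windows of the 10 genes and are present in 1.79% and 0.119% of all windows.

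Asns encodes the enzyme that makes asparagine from aspartate and glutamine and is a standard readout of Atf4 activity in amino acid shortage. Its level was 1.08 to 1.58 CPM in WT (median 1.33) and 1.74 to 5.60 CPM in mdx/mTR (median 2.76). All 6 mdx/mTR libraries lay above all 6 WT libraries. The WT libraries were close together, with a coefficient of variation of 12.5%, while the mdx/mTR libraries spread to 46.3%, with replicates 5 (5.60 CPM) and 2 (4.25 CPM) highest and replicate 4 (1.74 CPM) lowest. Between the groups, the log2 fold change was 1.26 ± 0.26 (SE; edgeR adjusted p 0.00135). These levels rest on 39 to 57 counts per library in WT and 85 to 277 in mdx/mTR.

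Trib3 encodes a pseudokinase that binds Atf4 and damps it, and is itself a target of Atf4 and CHOP. It was at 1.64 to 2.25 CPM in WT (median 1.93) and 0.924 to 1.69 CPM in mdx/mTR (median 1.56), and the ranges overlapped, with 4 of 6 mdx/mTR libraries below the lowest WT library. Between the groups, the log2 fold change was -0.43 ± 0.17 (SE; edgeR adjusted p 0.0442). That call lay close to the threshold. It was lost without WT replicate 2 (edgeR adjusted p 0.0674), 4 (0.0692), 5 (0.0962) or 6 (0.0687). The same held without mdx/mTR replicate 1 (0.0762) or 6 (0.0903). Over the fits that leave out 1 library, the log2 fold change stayed between -0.49 and -0.33. With library totals alone the log2 fold change was -0.27 (edgeR adjusted p 0.239).

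Chac1 encodes a cytosolic enzyme that breaks down glutathione and is among the targets most strongly induced by Atf4 and Atf3 in cultured cells. In this muscle it was one of the most abundant of the 10 genes. Per kilobase of exon, WT levels were 75.7 ± 4.17 CPM for Atf4, 45.9 ± 17.6 for Chac1, 32.2 ± 1.92 for Atf5, 8.16 ± 4.12 for Ddit4, 7.93 ± 0.944 for Ddit3 and 2.24 ± 0.872 for Atf3 (SD, n = 6). Sesn2 (0.951 ± 0.220), Trib3 (0.895 ± 0.103), Asns (0.486 ± 0.0607) and Gdf15 (0.0364 ± 0.0409) followed. In that order the neighbours Chac1 and Atf5, Ddit4 and Ddit3, and Sesn2 and Trib3 did not differ by more than their SDs. The length used is the union of all exons of a gene. For Ddit3 that is 1713 bases against 890 in its longest coding transcript, and for Ddit4 both are 1755 bases. The order of Ddit3 and Ddit4 thus depends on the length used. In mdx/mTR the mean of Chac1 (69.3 ± 33.2 CPM per kilobase) was above that of Atf4 (53.7 ± 3.53), a gap smaller than the SD of Chac1, and Asns (1.17 ± 0.540) stood beside Sesn2 (0.900 ± 0.164).

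The Chac1 level ran from 45.3 CPM through a median of 66.0 to 118 CPM in WT, and from 46.8 CPM through a median of 122 to 173 CPM in mdx/mTR. The groups overlapped: mdx/mTR replicates 1, 3 and 6 (166, 173 and 129 CPM) lay above the highest WT library, and mdx/mTR replicates 2 and 5 (51.9 and 46.8 CPM) near the lowest. Between the groups, the log2 fold change of 0.59 ± 0.33 (SE) did not pass (edgeR adjusted p 0.153), and no fit without 1 library brought it below 0.05, the smallest adjusted p being 0.0523. Chac2, the relative of Chac1 that works at a steady rate, was at 14.1 ± 0.990 CPM in WT and lower in mdx/mTR at 11.1 ± 1.77 CPM (-0.34 ± 0.10, edgeR adjusted p 0.0101; -0.20 with library totals alone, adjusted p 0.0873). For context, 200 bases upstream of Chac1 (chr2:119350992-119351191, plus strand, from 250 to 51 bases before the start) are shown with the searched site in capitals.
Chac1 upstream: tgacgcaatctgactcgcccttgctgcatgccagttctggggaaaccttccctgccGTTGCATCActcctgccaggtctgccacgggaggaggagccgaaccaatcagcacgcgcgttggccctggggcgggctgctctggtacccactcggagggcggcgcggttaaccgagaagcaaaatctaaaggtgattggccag

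Sesn2 and Ddit4 both encode inhibitors of the growth kinase mTORC1, and both also respond to other stresses. Sesn2 was at 2.81 to 4.81 CPM in WT (median 2.96) and 2.47 to 3.75 CPM in mdx/mTR (median 3.14), and the highest value of all 12 belonged to WT replicate 5. Its log2 fold change was -0.08 ± 0.16 (SE; edgeR adjusted p 0.705), turning to 0.06 without WT replicate 5 and to 0.09 with library totals alone. Its relative Sesn1 was higher, at 27.4 ± 3.27 CPM in WT against 37.3 ± 2.57 CPM in mdx/mTR (0.45 ± 0.08, edgeR adjusted p 3.66e-04), with groups that did not overlap. Another relative, Sesn3, did not pass (0.12, edgeR adjusted p 0.366). Of the 8 tested relatives of members, 1 was higher (Sesn1), 1 was lower (Chac2) and 6 did not pass. Over all genes tested, 25.0% were higher and 23.4% lower.

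Ddit4 was the most variable of the 9 tested genes. Its level was 5.43 to 24.5 CPM in WT (median 12) and 7.52 to 65.2 CPM in mdx/mTR (median 16.2), an 8.67-fold range within mdx/mTR. The highest library, mdx/mTR replicate 1, was followed by mdx/mTR replicate 3 at 34.0 CPM, and the other 4 lay inside the WT range. Between the groups, the log2 fold change of 0.80 ± 0.49 (SE) did not pass (edgeR adjusted p 0.199), and it was 0.22 without mdx/mTR replicate 1. Ddit4 is also induced by glucocorticoids and follows the time of day in muscle. Of 10 glucocorticoid induced genes, 2 were higher, the metallothionein genes Mt2 (4.29 ± 0.37, edgeR adjusted p 1.62e-06) and Mt1 (2.64 ± 0.25, adjusted p 4.14e-06), which zinc and inflammation also induce, and 8 did not pass. The clock and glucocorticoid gene Per1 was at 71.4, 68.4 and 69.8 CPM in mdx/mTR replicates 1, 3 and 6 and at 25.5, 43.6 and 29.9 CPM in replicates 2, 4 and 5. Fkbp5, another glucocorticoid target, was at 120, 103 and 112 CPM in the former and 69.1, 67.9 and 58.0 CPM in the latter. The part of Per1 and Fkbp5, chosen after their values were seen, in the spread of Ddit4 was not tested.

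Gdf15 encodes a circulating hormone that acts on the brainstem to reduce food intake. It had 15 counts over the 6 WT libraries and 124 over the 6 mdx/mTR libraries, and did not pass the filter on low counts. The level was 0 to 0.191 CPM in WT (median 0.0278) and 0.0523 to 0.788 CPM in mdx/mTR (median 0.341). A total of 4 WT libraries and 1 mdx/mTR library had 3 counts or fewer, the floor below which a gene counts as not detectable here (0.0460 to 0.0837 CPM, for counting error only), and 4 mdx/mTR libraries lay above the highest WT library. Fitted without the filter, its log2 fold change was 2.47 ± 0.69 (SE; edgeR adjusted p 0.0107). Fgf21, the other hormone gene of the response, had too few counts and was not tested. Its level was 0 to 0.0522 CPM in WT (median 0), under the floor, and 0.0273 to 0.276 CPM in mdx/mTR (median 0.112). For Fgf21, 5 mdx/mTR libraries lay above the highest WT library.

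The mdx/mTR libraries highest for Asns and Gdf15 were not those highest for Chac1 and Ddit4. Replicates 5 and 2 were highest for Asns and for Gdf15 (0.788 and 0.629 CPM) and lowest for Chac1, while replicates 1 and 3 were highest for Chac1 and Ddit4. The myoblast and satellite cell marker sum was also highest in replicates 5 and 2 (115 and 92.1 CPM, against 56.8 to 77.3 CPM in the other 4), as was the macrophage marker sum (629 and 420 CPM, against 233 to 397 CPM) and that of fibro-adipogenic progenitors (3217 and 3287 CPM, against 1816 to 2199 CPM). That last sum was mostly Col3a1 (2425 and 2503 CPM). Pdgfra, Lum and Dpt were also highest in replicates 5 and 2, but Dcn and Pi16 were highest in replicate 3 (544 and 44.9 CPM). The neutrophil marker sum was high in replicate 5 alone (25.7 CPM, against 2.41 to 4.95 CPM). Its genes differed: Csf3r lay above the highest WT library in all 6 mdx/mTR libraries (1.26 to 12.7 CPM, against 0.389 to 1.03 CPM). Mmp9 lay below the lowest WT library in 5 of them. The summed myofibre markers were lowest in replicates 5 and 2 (145368 and 150901 CPM). So were Ckm, Myh4, Tnnt3, Pvalb, Atp2a1 and Actn3 singly. In replicate 2, however, Acta1 was the highest of mdx/mTR (33123 CPM) and Mylpf (10513 CPM) was not among the lowest. These pairings were noticed after the values were seen, each rests on 6 libraries, and the part of the cell types in the levels of Asns, Gdf15 and Chac1 was not tested.

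**Figure D3:**
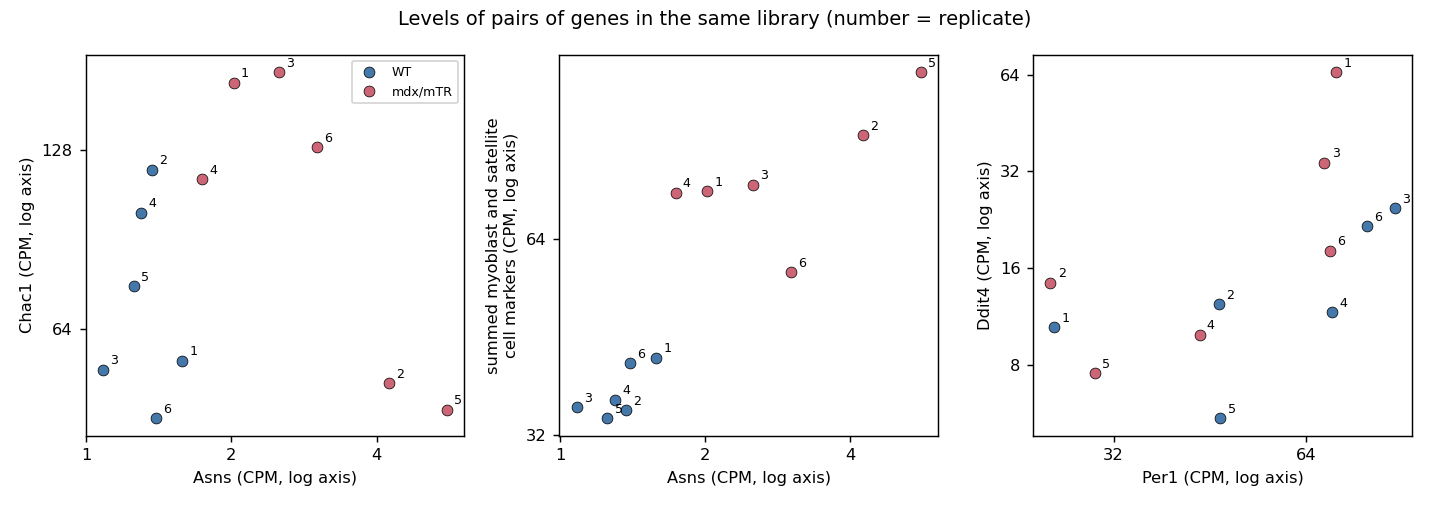
Levels in the same library for Asns and Chac1 (left), Asns and the summed myoblast and satellite cell markers (middle) and Per1 and Ddit4 (right), in CPM on log axes; numbers are replicate numbers, blue WT and red mdx/mTR. The mdx/mTR replicates 2 and 5 sit farthest right in the Asns and Chac1 plot, with the most Asns and the least Chac1 among mdx/mTR.

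Upstream of the 10 genes are the eIF2 kinases and the adaptors of the phosphatase that reverses them. Of 6 tested, 1 was higher and 2 lower. For this list and those that follow, the shares over all genes tested were 25.0% higher and 23.4% lower. Group means of the genes named from here on are given with WT first (SD, n = 6), followed by the log2 fold change with its SE. Eif2ak3, the gene of the endoplasmic reticulum kinase PERK, was higher at 8.35 ± 0.825 against 11.3 ± 1.59 CPM (0.43 ± 0.10, edgeR adjusted p 0.00221). Eif2ak1, the gene of the kinase that senses heme and mitochondrial stress, was lower at 73.8 ± 2.07 against 63.5 ± 3.71 CPM (-0.22 ± 0.04, adjusted p 0.00137), a call lost with library totals alone (adjusted p 0.131). The stress-induced phosphatase adaptor gene Ppp1r15a, a target of Atf4 and CHOP, was lower (-0.49 ± 0.13, adjusted p 0.00671). Of the 8 genes of eIF2 and of its exchange factor eIF2B, 5 were lower and 0 higher, led by Eif2s2 (-0.36 ± 0.07, edgeR adjusted p 0.0011) and Eif2b3 (-0.24 ± 0.06, adjusted p 0.00418; 0.197 with library totals alone). The median of that list was -0.16, and with library totals alone it was -0.01 with 1 gene lower.

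The list of bZIP partners of Atf4, which also holds Nupr1, not itself a bZIP gene, was split, with 3 of 8 genes higher and 2 lower. Cebpg, the partner that acts with Atf4 in amino acid supply, was lower in every mdx/mTR library, at 87.5 ± 5.70 against 60.1 ± 6.67 CPM (-0.54 ± 0.07, edgeR adjusted p 6.18e-05). Nupr1, a stress cofactor gene, was higher (0.61 ± 0.12, adjusted p 7.4e-04), as was Cebpb (0.52 ± 0.15, adjusted p 0.0121). Cebpb is also expressed by macrophages.

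Other targets of Atf4 also moved both ways. Of 26 tested in 3 lists, 7 were higher and 8 lower, with a median log2 fold change of 0.11 against 0.01 for all genes. With library totals alone the same 26 genes gave 13 higher and 6 lower, with a median of 0.27 against 0.17 for all genes. In amino acid synthesis, the serine pathway genes Psat1 (1.25 ± 0.401 against 3.87 ± 1.97 CPM; 1.63 ± 0.33, edgeR adjusted p 0.0013) and Phgdh (0.96 ± 0.28, adjusted p 0.0114) were higher, and Got1, the cytosolic aspartate transaminase gene that fibres express strongly, was lower (-0.37 ± 0.10, adjusted p 0.0062). As with Asns, the highest libraries for Psat1 were mdx/mTR replicates 5 and 2 (6.94 and 5.48 CPM). The folate enzyme gene Mthfd2 was called (0.89 ± 0.34, adjusted p 0.0468) but was at 22 CPM in mdx/mTR replicate 2 against 4.52 to 8.91 CPM in the other 5. Without that library its log2 fold change was 0.35 (edgeR adjusted p 0.0969), and the call was lost also without mdx/mTR replicate 1 or without any single WT library (adjusted p 0.0653 to 0.0834).

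Among amino acid transporters, 2 of 7 tested were higher and 2 lower. The cationic carrier gene Slc7a1 was higher (0.77 ± 0.17, edgeR adjusted p 0.00211), while the glycine transporter gene Slc6a9 (-0.78 ± 0.15, adjusted p 0.00102) and the neutral amino acid transporter gene Slc38a2 (-0.65 ± 0.15, adjusted p 0.00245) were lower. Slc7a11 and Slc7a3 had too few counts. The remaining list of targets mixes genes for signalling and secreted products with genes for other proteins. Of its 7 tested genes, 1 was higher and 4 lower. The lower genes were led by the asparaginyl-tRNA synthetase gene Nars (-0.28 ± 0.04, edgeR adjusted p 2.21e-04) and the lipoprotein receptor gene Vldlr (792 ± 169 against 478 ± 67.2 CPM, -0.73 ± 0.14, adjusted p 9.09e-04). The 1 higher gene, the oxidoreductase gene Ero1l (0.17 ± 0.07, edgeR adjusted p 0.0408), passed in 3 of the 12 fits that leave out 1 library, those without WT replicate 1 or mdx/mTR replicate 3 or 6, and in 8 of 20 alternatives. With library totals alone that list had 2 genes higher and 2 lower.

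**Figure D4:**
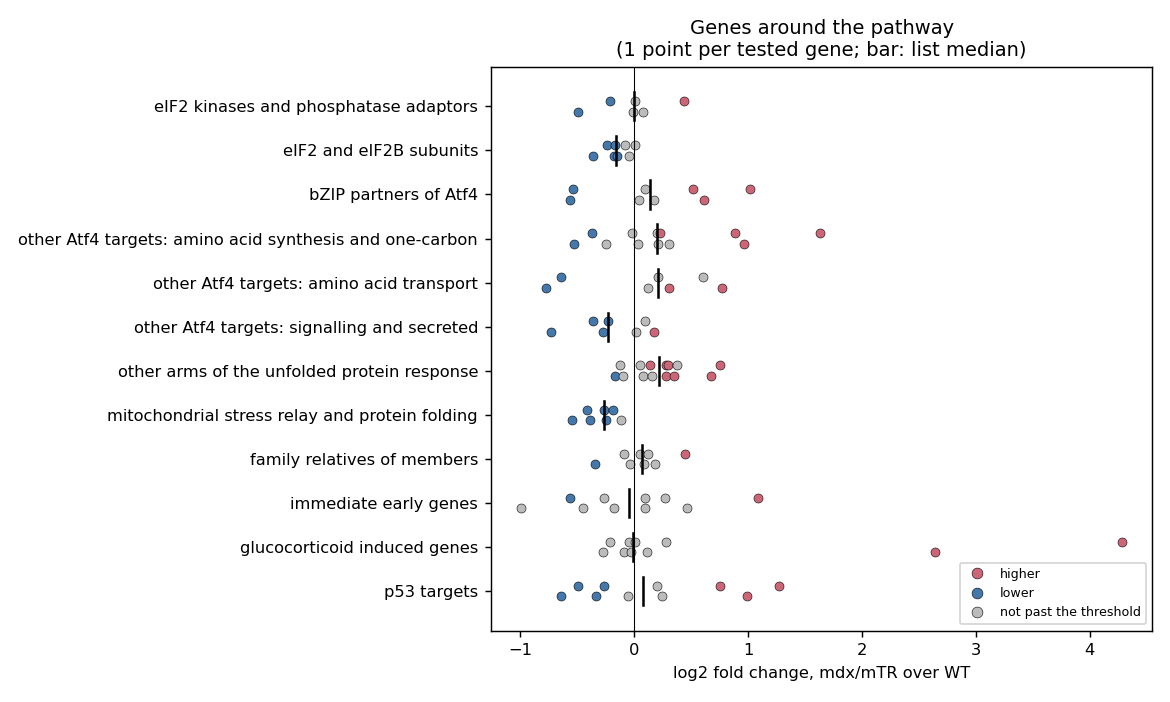
Difference between mdx/mTR and WT (log2) for each tested gene of 12 lists around the response (points; red higher, blue lower, grey not past an adjusted p of 0.05) with the list median (bar). The lists of Atf4 targets hold points on both sides of 0, and the genes of mitochondrial protein folding lie to the left.

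The unfolded protein response has arms beside Atf4 that raise genes for folding and for disposal of protein in the endoplasmic reticulum. Of its 14 genes, 7 were higher, 1 was lower and the median was 0.22 (9 higher, 0 lower and 0.38 with library totals alone). Over all genes tested, 25.0% were higher and 23.4% lower. The main chaperone genes Hspa5 (-0.10, edgeR adjusted p 0.255), Hsp90b1 (0.05, adjusted p 0.628) and Calr (0.08, adjusted p 0.394) did not pass. Of the 7 higher genes, Creld2 passed in 5 and Manf in 3 of the 12 fits that leave out 1 library; both held without WT replicate 6 and without mdx/mTR replicate 1 or 6, and Creld2 also without mdx/mTR replicate 2 or 4. Edem1, which helps to dispose of misfolded protein, was higher (12.1 ± 1.18 against 19.3 ± 3.72 CPM; 0.67 ± 0.11, edgeR adjusted p 3.38e-04), and so was the transcription factor gene Xbp1 (0.28 ± 0.06, adjusted p 0.00116). The mitochondrial list went the other way, with 6 of 7 genes lower, 0 higher and a median of -0.27 (-0.11 with library totals alone, with 4 lower). Its chaperone genes Hspd1 (107 ± 5.06 against 73.3 ± 3.54 CPM; -0.55 ± 0.05, edgeR adjusted p 1.3e-06) and Hspa9 (676 ± 26.1 against 507 ± 36 CPM; -0.41 ± 0.06, adjusted p 5.92e-05) were lower without overlap between the groups. The gene of the relay protein that carries mitochondrial stress to the eIF2 kinases, listed as 0610009O20Rik and now named Dele1, did not pass (-0.11, adjusted p 0.19).

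Over the 12 lists together, 25 of 105 tested genes were higher and 29 lower, shares close to those of all genes (25.0% and 23.4%). With library totals alone, the median over all genes moved up by 0.16 on the log2 scale and the same 105 genes gave 36 higher and 16 lower. The calls on Atf4, Atf5, Ddit3, Asns and Atf3 held with that scaling, at log2 fold changes of -0.34, -0.31, -0.47, 1.44 and 1.19.

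The genes whose profile over the 12 libraries was most like that of a member were found by the root mean square difference of log2(CPM + 0.5) after subtracting each gene's WT mean. Among those nearest to Atf4 were Rhbdd3 (0.0361) and Ubl3 (0.0413), against a median of 0.385 over the 12206 genes compared. The nearest gene to Atf5 was Pdk1 (0.0748), which encodes a pyruvate dehydrogenase kinase, and the nearest to Ddit3 was Cd300lg (0.137), a gene of capillary endothelium. Trib3 was closest to Dgke (0.126), Sesn2 to Thap1 (0.125) and Asns to Fam111a (0.179). For Atf3, Chac1 and Ddit4 the nearest genes, Ptpro (0.348), Mfsd7b (0.384) and Gadd45g (0.393), were farther off than the nearest genes of the other 6. The median over the genes compared was also larger than for Atf4, at 0.853 for Atf3, 0.763 for Chac1 and 0.983 for Ddit4. It was 0.77 for Asns.

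In the authors' deposited table, the log2 fold changes were -0.50 for Atf4, -0.47 for Atf5, -0.63 for Ddit3 and -0.42 for Trib3, and 0.89 for Atf3 and 1.11 for Asns, all with an adjusted p below 0.05. The authors' deposited table gives 0.48 for Chac1, 0.51 for Ddit4 and -0.08 for Sesn2, none past that threshold, and for Gdf15 a log2 fold change of 1.28 with no adjusted p and the status Low.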

How the data were processed

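Per the labels' protocols, RNA from 12 tibialis anterior muscles was extracted with a miRNEasy kit and made into standard Illumina libraries. FastQC, STAR, DESeq2 and mm10 are named in the submitters' processing notes, with no versions; the counter, annotation and strand handling are not given in the sources used here. The authors deposited raw counts per gene symbol with 1 column per library. A second deposited table has the authors' own comparison: log2 fold change and SE, test score, p-values and the mean signal over all libraries.

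Counts were tested with edgeR 4.0.16 in R 4.3.3 (filterByExpr, 13937 genes; trimmed mean of M-values scaling, TMM; quasi-likelihood test with group as the only term; Benjamini-Hochberg over all genes, threshold 0.05). CPM used the scaled library sizes, and the SE is the log2 fold change over the square root of F. The members and gene lists were chosen with earlier results of these data known. Sesn3, Eda2r, Mdm2, Phlda3 and the cell type marker genes named singly were chosen after their values were seen. Named are all members, the 2 smallest p-values of each list, the genes most like each member (1 of them is not reported here), Dmd and, chosen after their values were seen, Ppp1r15a, Cebpb, Phgdh, Mthfd2, Slc38a2, Ero1l, Creld2, Manf, the chaperone genes, Per1, Fkbp5, Gdf15 without the filter, Cdkn1a, Ccng1 and the untested or weaker genes given beside them. On simulated counts for 13937 genes with 200 changed, edgeR recovered 69% of 1.5-fold and 87% of 2-fold changes with 3 false calls. The simulated share of changed genes was far below the 48.3% that passed in the data, so these figures do not measure the calls given here.

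Replicate pairs differed by 9.14 to 128 in chi-square per degree of freedom, so none was counted as a duplicate. WT replicate 2 stood apart from the other WT libraries, at 43.4 to 56.6, while the remaining WT pairs were at 9.14 to 17.8. Without WT replicate 2, 6816 genes passed, against 6736 with all libraries. Gene positions, exon lengths and overlaps came from GENCODE M21 (GRCm38), and promoter windows from RefSeq (GRCm38.p6), found for all 10 members. Alternatives were other filters, scalings and tools (DESeq2 1.42.0, limma-voom 3.58.1), a replicate block and each library left out in turn.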

Additional observations from a re-analysis of the deposited data

Results flagged for a closer look

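Dixon's test at the 95% level, which sets the distance of an extreme library from its nearest neighbour against the spread of its 6, was applied to 52 genes. It singled out 6 of 104 sets of 6 libraries; chance gives about 1 in 20, or 5.2. Among the 10 members only Sesn2 was singled out, in WT replicate 5 (4.81 CPM against 2.81 to 3.41 CPM, ratio 0.698). Cebpg was low in mdx/mTR replicate 5 (47.1 CPM against 61.2 to 66.3 CPM, ratio 0.737), the library that also had the lowest Atf5. Mthfd2 was high in mdx/mTR replicate 2 (22 CPM against 4.52 to 8.91 CPM, ratio 0.749). WT replicate 1 was low for Psat1 (0.5001 CPM against 1.19 to 1.59 CPM, ratio 0.636) and Slc7a1 (3.81 CPM against 4.66 to 5.16 CPM, ratio 0.631), and WT replicate 2 for Nars (134 CPM against 150 to 159 CPM, ratio 0.655).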

How the results depend on the processing

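Atf4, Atf5, Ddit3, Asns and Atf3 were called in the same direction in each of the 20 alternatives, and Chac1 and Ddit4 passed in none. Trib3 was called in 11: it was lost with no filter (-0.43, adjusted p 0.0565), upper quartile scaling (-0.39, adjusted p 0.0691) and library totals alone (-0.27), and leaving out 1 library gave -0.49 to -0.33. Sesn2 turned positive with library totals alone (0.0852) and ranged from -0.138 to 0.0582 when 1 library was left out. Gadd45g (-0.0600 without mdx/mTR replicate 1, 0.574 without mdx/mTR replicate 2) and Thap1 (0.0959 with library totals alone) also changed sign. Scaling by library totals gave 5596 genes higher, 1560 lower and 16 list genes lower; the cause was not tested. The number of members called was 5 or 6 throughout. Libraries of the 2 groups share replicate numbers, but deviations from the group means correlated in only 2 of 6 pairs above 0.1 (from -0.14 to 0.33), and the numbers were not taken as pairs. With the replicate block 6420 genes and 6 members passed, and Mthfd2 did not (0.62, edgeR adjusted p 0.117). No other named call changed among those followed in this setting, which leave out Ero1l, Creld2 and Manf. Ero1l passed in 8, Creld2 in 11 and Manf in 9 of the 20 alternatives. Depth limits Gdf15, at 0 to 7 counts in WT.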

Other observations

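Several members, among them Sesn2, Gdf15, Atf3 and Ddit4, are also known targets of p53, the factor that answers DNA damage. The list of 10 p53 targets held 3 genes higher and 4 lower, with a median log2 fold change of 0.07. With library totals alone it held 4 higher and 3 lower, with a median of 0.23. Over all genes tested, 25.0% were higher and 23.4% lower. The cell cycle inhibitor gene Cdkn1a was higher (20.4 ± 6.02 CPM in WT against 49.3 ± 12 CPM in mdx/mTR, SD, n = 6; 1.27 ± 0.20, edgeR adjusted p 1.64e-04), and so was the cell death gene Bbc3 (0.99 ± 0.14, adjusted p 8.16e-05). The nuclease gene Aen (37.0 ± 1.39 CPM in WT against 23.7 ± 1.10 CPM; -0.64 ± 0.04, edgeR adjusted p 2.51e-07) and Ccng1 (-0.50 ± 0.08, adjusted p 2.04e-04) were lower. The groups did not overlap for any of these 4 genes, which were picked by p-value or after their values were seen. Over all genes tested, the groups did not overlap for 12.6% in each direction. Of the other genes called, Eda2r was higher (0.76 ± 0.16, edgeR adjusted p 0.00136). Mdm2 (-0.27 ± 0.06, edgeR adjusted p 0.00173) and Phlda3 (-0.33 ± 0.13, adjusted p 0.0402) were lower.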
